A study of Mus musculus with 10 samples.

Results

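Tumor suppressors and cell cycle brakes were followed across 10 mouse tumors through 9 genes, namely Trp53, Mdm2, Cdkn1a, Cdkn2a, Cdkn2b, Rb1, Ccnd1, Ccnd2 and Myc. A probe belonged to the set if the scanner annotation named it for one of these genes, which gave 16 of the 40196 probes in the normalized table. Trp53, Mdm2 and Rb1 had 2 probes each, Ccnd2 and Myc had 3, and each other gene had 1. The study set 5 sarcomatoid (spindle cell) carcinomas against 5 adenocarcinomas, and each tumor was hybridised on 1 array with a common reference RNA. Each value is a log2 ratio with the tumor above and the reference below, so it compares a gene between tumors and not one gene with another. The labels name the opposite dye for the tumor RNA, and the direction was taken from the signals themselves, so every sign would turn if that label were right. Turned signs would also put epithelial markers such as Epcam and Krt18 higher, on average, in the sarcomatoid tumors.

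Every tumor arose in, or was derived from, mice in which MMTV-Cre, a recombinase driven by a promoter active mainly in mammary epithelium, switched on a mutant allele. The 5 adenocarcinomas (tumors 105, 131, 470, 17 and 85) were mammary tumors of mice that joined MMTV-Cre to both Pik3ca H1047R and Trp53 R270H. The sarcomatoid group held mammary tumors 323, 307 and 594 and lung tumors from 323 and 307, which the study's methods describe as grown after a cell line of the mammary tumor was injected into the tail vein. The methods give 1 pair the same alleles as the adenocarcinomas, and the other Pik3ca H1047R and MMTV-Cre alone with a Trp53 R245H mutation that arose spontaneously, and the labels do not say which number is which. The remaining sarcomatoid tumor carried Trp53 R270H and MMTV-Cre without a Pik3ca allele, and 594 is the number left for it, since it has no lung partner. The methods give C57BL/6 as the background of the mice with both alleles. All groups therefore carried a mutant Trp53 allele, and no tumor without such a mutation was compared. The paper writes the genotype of a tumor with both mutations as heterozygous for Trp53 R270H. Whether the normal allele was kept in these tumors was not tested. The 5 sarcomatoid samples stand for 3 tumor origins, and each lung tumor grew from a cell line, so the spread in this group is partly between samples of the same origin. Ages are not given in the labels.

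The p53 protein, encoded by Trp53, stops the cell cycle or triggers cell death after DNA damage, largely by switching on genes such as Cdkn1a, whose product blocks cyclin-dependent kinases. Mdm2 marks p53 for destruction and is itself switched on by p53. Cdkn2a encodes p16Ink4a, which inhibits the kinases that bind D cyclins, and p19Arf, which holds Mdm2 in check. Cdkn2b encodes a close relative of p16Ink4a, and the D cyclins (Ccnd1 and Ccnd2) drive those kinases to inactivate the Rb1 protein, which restrains entry into S phase. Myc encodes a transcription factor that promotes growth and division.

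A promoter window was held for 5 of the 9 genes in the RefSeq table (GRCm38.p6), with 7 windows in all. The sequences below are the last 120 bases before an annotated start, shown because Cdkn1a is the p53 target of the set and because Cdkn2a, read by a single probe, has 2 starts. In the Cdkn1a stretch (chr17:29090859-29090978, plus strand), which lies upstream of the gene's other start, the capitals mark ACATGT, the core of a p53 binding element. It stood at 2 places, 49 and 39 bases before the start. Over the 250 bases before the start, ACATGT (which reads the same on both strands) was present in 4.58% of 32851 windows, and at 2 places in 0.247%.
Cdkn1a upstream start: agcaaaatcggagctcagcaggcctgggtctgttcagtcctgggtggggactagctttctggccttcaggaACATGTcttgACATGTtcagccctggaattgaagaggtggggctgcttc
In the Cdkn2a and Cdkn2b stretches the capitals mark any of the E2F motifs TTTCCCGC, TTTGGCGC, TTTCGCGC and TTTGCCGC, searched on both strands and present in 1.86% of the 32851 windows. The Cdkn2a start that lies farther upstream, used for the Arf transcript (chr4:89294620-89294739, minus strand), held 1 match. The start used for the Ink4a transcript (chr4:89282193-89282312, minus strand) and the neighbouring Cdkn2b start (chr4:89311033-89311152, minus strand) held none. A match describes the letters only.
Cdkn2a Arf start: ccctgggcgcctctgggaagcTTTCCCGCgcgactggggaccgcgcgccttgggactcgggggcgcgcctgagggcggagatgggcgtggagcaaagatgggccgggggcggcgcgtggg
Cdkn2a Ink4a start: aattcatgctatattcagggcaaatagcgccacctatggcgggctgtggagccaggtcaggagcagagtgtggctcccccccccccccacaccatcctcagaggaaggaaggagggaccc
Cdkn2b start: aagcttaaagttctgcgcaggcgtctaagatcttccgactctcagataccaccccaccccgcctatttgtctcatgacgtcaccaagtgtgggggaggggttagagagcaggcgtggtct

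The labelled histology was checked against marker genes. The mean log2 ratio of 10 epithelial markers, such as Epcam and Krt18, lay between 3.19 and 3.54 in adenocarcinomas 105, 131, 17 and 85, and at -1.67 in adenocarcinoma 470. In the sarcomatoid tumors it ran from -2.81 to 1.70, with both lung tumors lowest. Tumor 470 thus stood with the sarcomatoid tumors and against its label, and the difference between the groups is given with and without it for each member. The choice to leave it out rests on these same data. The mean of 10 mesenchymal markers was 0.74 in tumor 470, from -2.29 to -0.75 in the other adenocarcinomas and from -0.64 to 1.27 in the sarcomatoid tumors. The mean of 8 myeloid markers was 2.68 to 3.8 in the sarcomatoid tumors, 3.07 in tumor 470 and 0.69 to 2.0 in the other adenocarcinomas. Of these lists, 5 epithelial markers were lower and 6 mesenchymal and 8 myeloid markers were higher in the sarcomatoid tumors at an unadjusted p below 0.05, and none at an adjusted p below 0.05, beside 6.32% of all named genes higher and 4.8% lower at the unadjusted level. Without tumor 470 the counts were 9 epithelial markers lower, 7 mesenchymal higher and 8 myeloid higher, beside 9.43% of named genes higher and 7.67% lower, and 3, 2 and 4 of them passed the adjusted threshold. The 6 T cell markers with a probe, the 7 lung epithelium markers and the 10 mitotic markers had none at that unadjusted level in either direction. Their means ran over -0.94 to 0.71, -0.01 to 0.95 and -1.46 to -0.88 in the sarcomatoid tumors and over -0.81 to 0.30, 0.17 to 1.07 and -1.80 to -0.19 in the adenocarcinomas. Of the lung epithelium markers, Sftpa1 was well above background on no array. In such bulk samples, fewer cells of a type and less RNA per cell cannot be told apart, and the part of these cell types in the members' values was not tested.

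All member probes but Rb1 probe A_52_P419873 were well above background in the tumor channel on all 10 arrays, while 52.2% to 83% of all probes on an array were. Across probes, the arrays correlated with each other at r of 0.41 to 0.77, so none was a copy of another. Spread over the 10 tumors differed widely among the members. The SD of the log2 ratio was 0.13 for Trp53 probe A_52_P781398, smaller than for all but 0.102% of probes, and 1.15 for Cdkn2b, above that of 90.3% of probes. The median SD of all probes was 0.57.

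Sarcomatoid tumors were compared with adenocarcinomas to ask how these genes differ between tumors the study groups as metastatic and as non-metastatic. No member probe differed between the groups at an adjusted p below 0.05 (limma, Benjamini-Hochberg over 40196 probes), with adjusted p from 0.51 to 0.99. None of the 40196 probes (0%) passed. At an unadjusted p below 0.05, 2 of the 16 member probes, Cdkn2a and Cdkn2b, were higher in the sarcomatoid tumors and none was lower, beside 4.98% of all probes higher and 4.25% lower. With scan batch as a term both missed that level, Cdkn2a at 1.07 (SE 0.51, p 0.0647) and Cdkn2b at 1.08 (SE 0.64, p 0.12). The groups overlapped on all 16 member probes, while they did not overlap on 1.33% of all probes. Without tumor 470, 1.54% of all probes passed the adjusted threshold and none of the members did, with a lowest adjusted p of 0.14. At an unadjusted p below 0.05, 1 member probe (Cdkn2a) was then higher and 3 (all Myc) were lower, beside 7.46% and 6.72% of all probes. The median log2 difference of the 9 genes was 0.16 with all tumors and 0.09 without tumor 470, beside 0.01 in both cases for the 19272 named genes on the array.

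**Figure D1:**
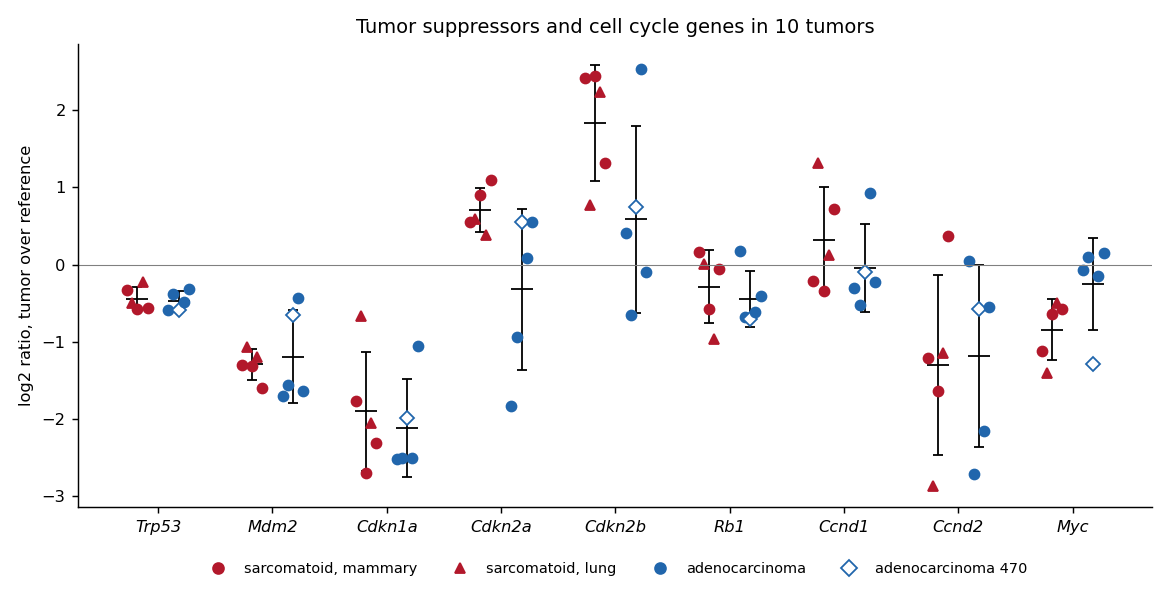
Log2 ratio of tumor over reference (y axis) for 1 probe of each of the 9 genes (x axis), the probe with the highest mean signal. Each point is a tumor, and bars give the mean and SD of the 5 sarcomatoid (red) and 5 adenocarcinoma (blue) tumors. Cdkn2a and Cdkn2b lay higher in the sarcomatoid tumors on average, by 1.02 and 1.24, and tumor 470 (open diamond) was the lowest adenocarcinoma for Myc at -1.28.

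**Figure D2:**
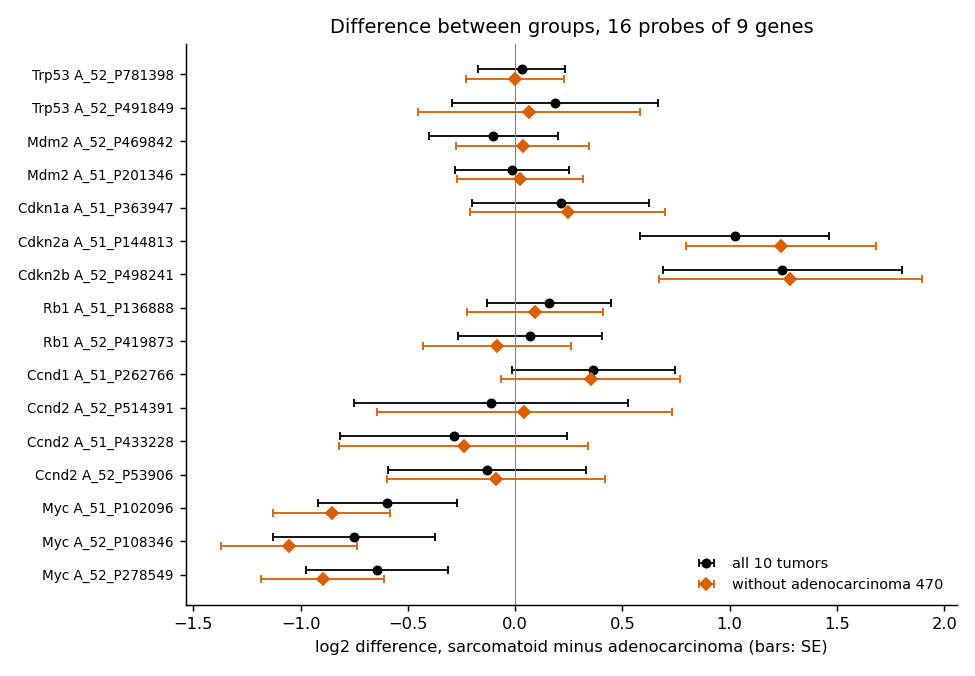
Difference in mean log2 ratio, sarcomatoid minus adenocarcinoma (x axis), for the 16 member probes, with bars for the standard error of limma's fit. Black points use all 10 tumors and orange diamonds leave out tumor 470, which moved Myc probe A_52_P108346 from -0.75 to -1.05.

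Cdkn2a and Cdkn2b, neighbouring genes on chromosome 4 that encode kinase inhibitors, had the largest differences of the 9 genes. Cdkn2a (probe A_51_P144813, mm7 chr4:88678367-88678426) had log2 ratios of 0.56 in tumor 323, 0.59 in its lung tumor, 0.90 in tumor 307, 0.39 in its lung tumor and 1.10 in tumor 594. The adenocarcinomas had -1.83 in tumor 105, -0.94 in 131, 0.55 in 470, 0.09 in 17 and 0.55 in 85. The sarcomatoid tumors were close together at 0.71 ± 0.29 (SD, n = 5), whereas the adenocarcinomas were spread out at -0.32 ± 1.04 (SD, n = 5), and tumors 470 and 85 lay within the sarcomatoid range. The difference was 1.02 (SE 0.44), a 2.03-fold higher ratio, with a limma p of 0.0391 and an adjusted p of 0.51. The exact two-sided permutation test over samples gave p = 0.0397, where 0.00794 is the smallest it allows. When the samples of a tumor number were averaged, 3 against 5, the difference was 1.09 and the exact permutation test gave p = 0.11. Without tumor 470 the difference was 1.24 (SE 0.44), with an adjusted p of 0.22. Without tumor 105, the lowest of all, it was 0.64 (SE 0.35, limma p 0.0916), and without tumor 131 it was 0.87 (SE 0.47, limma p 0.0901). Leaving out tumor 323, its lung tumor, tumor 307 or tumor 594 gave 0.93 to 1.06, also with an unadjusted p above 0.05.

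The array carried Cdkn2a in 10 spots, and their SD was 0.03 to 0.06 on all arrays but that of tumor 323, where it was 0.30. Outside tumor 323, spots of a tumor thus lay much closer together than the tumors did. In tumor 323 the spots spread about as widely as the 5 sarcomatoid tumors (SD 0.29). Within scan batch 2 (tumors 307 and 594 against 105 and 470) Cdkn2a was 1.64 higher, and within scan batch 3 (both lung tumors against 131, 17 and 85) it was 0.59 higher. A scan batch is the set of arrays whose file headers name the same version of the Feature Extraction protocol. In the 3 mammary sarcomatoid tumors alone Cdkn2a lay at 0.85 ± 0.27 (SD, n = 3), in the deposited values above every adenocarcinoma. The margin was very small, with 0.559 in tumor 323 and 0.552 in adenocarcinoma 470. With scanner files and loess these 2 tumors had 0.52 and 0.61, so the groups overlapped. In the deposited values 5.83% of all probes did not overlap between these groups, 3.9% with the mammary sarcomatoid tumors higher. The difference from the adenocarcinomas was 1.17 (SE 0.52) with a limma adjusted p of 0.58. With Cdkn2b at 1.46 (SE 0.66, adjusted p 0.58), 2 member probes were higher there at an unadjusted p below 0.05 and none was lower, beside 4.83% and 3.76% of all probes, and none of all probes passed the adjusted threshold.

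Cdkn2b (probe A_52_P498241, for which the files give no position) had log2 ratios of 2.41 in tumor 323, 0.77 in its lung tumor, 2.44 in tumor 307, 2.24 in its lung tumor and 1.31 in tumor 594. The adenocarcinomas had 0.41 in tumor 105, -0.65 in 131, 0.75 in 470, 2.54 in 17 and -0.09 in 85. All sarcomatoid tumors lay above 4 of the 5 adenocarcinomas, but adenocarcinoma 17 had the highest value of all. The means were 1.83 ± 0.75 and 0.59 ± 1.21 (SD, n = 5 each), a difference of 1.24 (SE 0.56) with a limma p of 0.0457 and an adjusted p of 0.53. The exact permutation p was 0.0952 over samples and 0.20 over tumor numbers. Without tumor 470 the difference was 1.28 (SE 0.61), with an adjusted p of 0.38 and an unadjusted p of 0.0596. Leaving out adenocarcinoma 105, 131 or 85, tumor 323, tumor 307 or lung tumor 307 also took the unadjusted p above 0.05, and the lowest of these differences was 0.93, without tumor 131. Without tumor 17 the difference was 1.73 (SE 0.43, adjusted p 0.50). Within scan batch 2 it was 1.30 and within scan batch 3 it was 0.91.

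The genes next to Cdkn2a were measured on the same arrays. Mtap, which encodes an enzyme of methionine salvage and is the nearest gene on the other side of Cdkn2a, was 1.33 (SE 0.35) higher in the sarcomatoid tumors, with a limma p of 0.00276 and an adjusted p of 0.34. Its log2 ratio ran from -1.04 to 0.33 in the sarcomatoid tumors and from -2.28 to -0.82 in the adenocarcinomas, and the groups overlapped through tumor 594. The interferon genes Ifne, Ifna1 and Ifna4 beyond Mtap differed by 0.18, 0.11 and -0.32, and Dmrta1, Zfp352 and Elavl2 beyond Cdkn2b by -0.25, 0.24 and 0.71, with adjusted p of 0.79 to 0.95. Of these 6 genes, Ifna1 was well above background on 9 of the 10 arrays and the others on 1 to 4. Of the 8 nearest genes with a probe, Mtap and Cdkn2b were the 2 at an unadjusted p below 0.05, beside 6.32% of all named genes higher and 4.8% lower at that level.

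Myc had lower mean values in the sarcomatoid tumors on all 3 of its probes. Probe A_51_P102096 (mm7 chr15:62064256-62064316) had log2 ratios of -1.12 in tumor 323, -1.40 in its lung tumor, -0.63 in tumor 307, -0.50 in its lung tumor and -0.58 in tumor 594. The adenocarcinomas had -0.07 in tumor 105, 0.10 in 131, -1.28 in 470, -0.15 in 17 and 0.15 in 85. Tumor 470 lay among the sarcomatoid tumors, and the other 4 adenocarcinomas lay above all of them. The difference was -0.60 (SE 0.32) with a limma adjusted p of 0.61 and an exact permutation p of 0.11. The other Myc probes, A_52_P108346 and A_52_P278549, differed by -0.75 (SE 0.38) and -0.64 (SE 0.33), with adjusted p of 0.57 and 0.58 and exact permutation p of 0.0952 and 0.0873. Over tumor numbers the 3 exact permutation p were 0.23, 0.16 and 0.18.

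Without tumor 470 the 3 Myc differences were -0.85 (SE 0.27), -1.05 (SE 0.32) and -0.90 (SE 0.29), with limma p of 0.00939, 0.00644 and 0.00962 and adjusted p of 0.16, 0.14 and 0.17. The groups then did not overlap on 2 of the 3 probes, beside 6.41% of all probes and 2.93% with the sarcomatoid tumors lower, and they overlapped by a single pair of tumors on the third (lung tumor 307 at -0.06 and tumor 17 at -0.07). Within scan batch 3 the differences were -0.99, -1.02 and -0.77. Within scan batch 2, which holds tumor 470, they were 0.07, 0.03 and -0.16, and against tumor 105 alone in that batch they were -0.53, -0.58 and -0.74. The 3 probes lie within 591 bases of each other and correlated at r of 0.92 to 0.99 over the 10 tumors, so they are repeated readings of the same transcript and not separate evidence. Epithelial markers moved with these values in tumor 470, and the other adenocarcinomas had epithelial means of 3.19 to 3.54. Tumor 323 had the highest epithelial mean of the sarcomatoid tumors, 1.70, while its Myc ratios were -1.60 to -1.02. Lung tumor 307 had the lowest, -2.81, and the highest sarcomatoid Myc ratio on all 3 probes, from -0.50 to -0.06. The part of epithelial markers in the Myc difference was not tested.

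**Figure D3:**
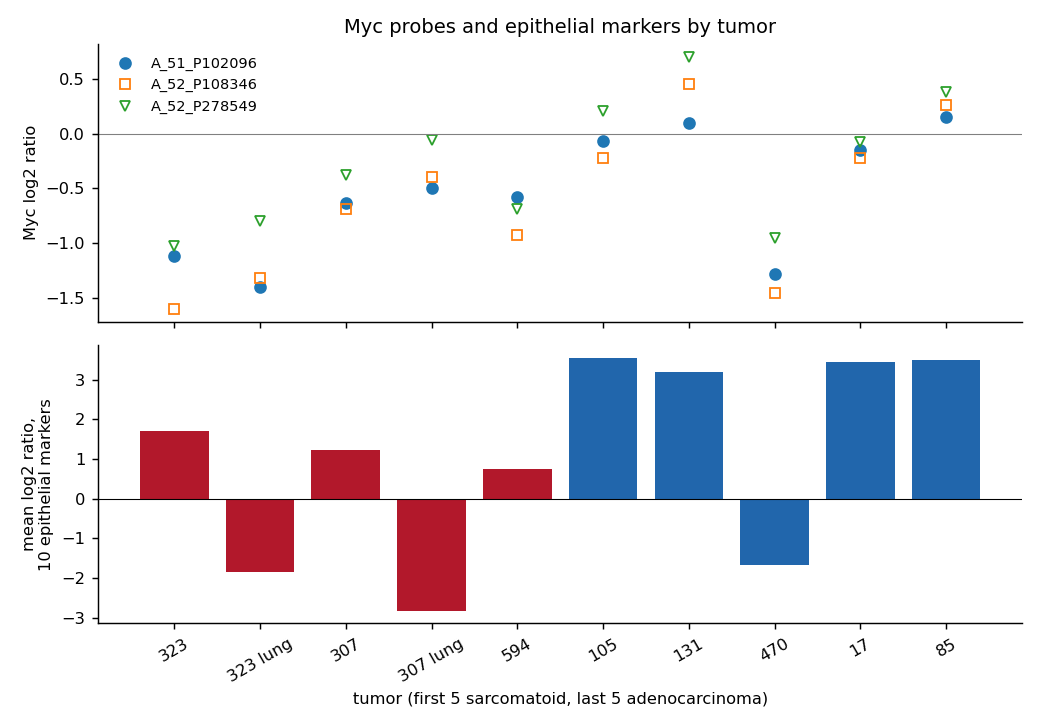
Log2 ratio of the 3 Myc probes (top) and mean log2 ratio of 10 epithelial markers (bottom, bars from 0) in each tumor (x axis, the first 5 sarcomatoid and the last 5 adenocarcinoma). Tumor 470 was low in both, at -1.28 on Myc probe A_51_P102096 and -1.67 for the epithelial markers, unlike the other adenocarcinomas.

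Of the genes around Myc, Trib1, a pseudokinase gene, had a log2 difference of -1.24 between the groups (SE 0.33, limma p 0.00266, adjusted p 0.33), and Lratd2 had a difference of -1.52 (SE 0.70, adjusted p 0.54). Pvt1, a long noncoding RNA gene just downstream of Myc, went the other way at 0.66 (SE 0.27, adjusted p 0.48). The ratios of Trib1, Lratd2 and Pvt1 correlated with those of Myc probe A_51_P102096 at r of 0.72, 0.78 and -0.75 over the 10 tumors, which share a reference and scan batches. The remaining 5 of the 8 neighbours differed by -0.30 to 0.02.

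Trp53 itself was read by 2 probes that gave different pictures. Probe A_52_P781398 (mm7 chr11:69662031-69662089, 1 spot per array) was nearly level, with -0.33, -0.50, -0.57, -0.23 and -0.57 in tumor 323, lung tumor 323, tumor 307, lung tumor 307 and tumor 594. The adenocarcinomas ran from -0.59 to -0.31 with a median of -0.48, and the difference between the groups was 0.03 (SE 0.20, adjusted p 0.98) with all tumors and 2.08e-04 without tumor 470. Probe A_52_P491849 (mm7 chr11:69671206-69671265, 10 spots), which lies 9175 bases downstream, had -2.62, -0.62, -1.70, -0.12 and -1.51 in the same sarcomatoid order. In the adenocarcinomas it had -1.86 in tumor 105, -1.85 in 131, -1.99 in 470, -1.51 in 17 and -0.30 in 85.

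On this second Trp53 probe, 7 tumors lay between -2.62 and -1.51 and the other 3, both lung tumors and adenocarcinoma 85, between -0.62 and -0.12. The difference between the groups was 0.19 (SE 0.48, limma adjusted p 0.94) with all tumors and 0.07 without tumor 470. It was 0.32 within scan batch 2, 0.85 within scan batch 3 and 0.61 (SE 0.34, adjusted p 0.60) with scan batch as a term. The SD of the 10 spots was 0.03 to 0.10 on 9 arrays and 0.32 in tumor 323, below the gap between these 3 tumors and the rest. The 2 probes correlated at r of 0.45 over the 10 tumors, the lowest value for any pair of probes of the same gene. All 3 of the high tumors were in scan batch 3, which also held adenocarcinomas 131 and 17 at -1.85 and -1.51.

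**Figure D4:**
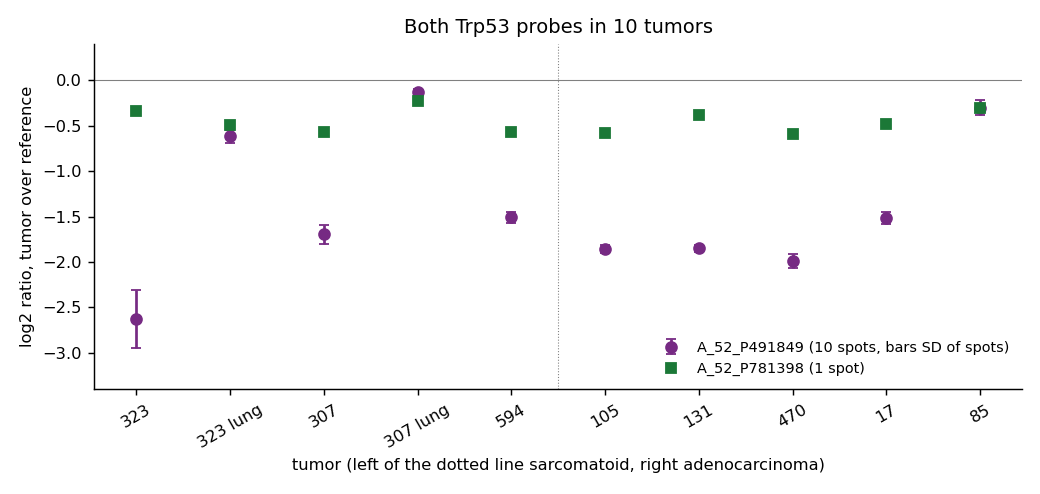
Log2 ratio of both Trp53 probes (y axis) in each of the 10 tumors (x axis), with bars for the SD of the 10 spots of probe A_52_P491849. The single-spot probe A_52_P781398 stayed between -0.59 and -0.23, while A_52_P491849 ran from -2.62 to -0.12 and met the other probe only in both lung tumors and in tumor 85.

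Genes directly switched on by p53 gave no single direction. Cdkn1a (probe A_51_P363947, mm7 chr17:27293819-27293878), whose upstream start carries the element printed above, had log2 ratios of -1.77 in tumor 323, -0.67 in its lung tumor, -2.70 in tumor 307, -2.05 in its lung tumor and -2.31 in tumor 594. The adenocarcinomas had -2.52 in tumor 105, -2.50 in 131, -1.98 in 470, -2.50 in 17 and -1.06 in 85. Every tumor was thus below the reference, and lung tumor 323 and adenocarcinoma 85 were the 2 highest. The difference between the groups was 0.21 (SE 0.41, limma adjusted p 0.92), with an exact permutation p of 0.61, and it was 0.24 without tumor 470. Within scan batch 2 it was -0.25 and within scan batch 3 it was 0.66. Mdm2 probe A_52_P469842 lay at -1.29 ± 0.20 in the sarcomatoid tumors and -1.19 ± 0.60 in the adenocarcinomas (SD, n = 5 each). Tumors 470 and 17 were its highest values, at -0.65 and -0.43, and the other 8 tumors lay between -1.70 and -1.06. The other Mdm2 probe, A_51_P201346, ran the same way (r of 0.90 over the 10 tumors) and differed between the groups by -0.01 (SE 0.27). Probe A_52_P469842 differed by -0.10 (SE 0.30), and without tumor 470 the differences were 0.02 and 0.03.

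Of 24 other p53 target genes, all measured, 2 were higher and 1 was lower in the sarcomatoid tumors at an unadjusted p below 0.05. This stood beside 6.32% of named genes higher and 4.8% lower at that level, and none of the 24 passed the adjusted threshold. Their median difference was 0.18. Sesn1, a stress-response gene, had a mean of 0.64 ± 0.44 in the sarcomatoid tumors and -0.59 ± 0.45 in the adenocarcinomas (SD, n = 5 each), a difference of 1.23 (SE 0.30, limma adjusted p 0.33). Apaf1, which assembles the apoptosome, differed by 1.07 (SE 0.42, adjusted p 0.48), and Zmat3 by 0.62 (SE 0.34, adjusted p 0.61). Perp, which encodes a membrane protein of desmosomes as well as a p53 target, differed by -3.47 (SE 1.28, adjusted p 0.45), and Plk2 and Ei24 by -0.80 and -0.50 (adjusted p 0.54 and 0.56). Without tumor 470 the count was 5 higher and 3 lower at an unadjusted p below 0.05, beside 9.43% of named genes higher and 7.67% lower, and Sesn1 came nearest to the adjusted threshold at a difference of 1.36 with an adjusted p of 0.0564.

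The 11 measured regulators and relatives of p53 had no gene at an unadjusted p below 0.05, and their median difference was -0.18. Mdm4, a relative of Mdm2 that also restrains p53, differed by -0.58 (SE 0.28, limma adjusted p 0.55), Trp63 by -1.53 (SE 1.23) and Trp53bp1 by -0.32 (SE 0.26). Trp73, Atm and Hipk2 had the positive differences with the smallest p, at 0.20, 0.19 and 0.14. Without tumor 470, Mdm4 alone reached an unadjusted p below 0.05.

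The Rb1 side of the cell cycle showed little difference between the groups. Rb1 probe A_51_P136888 (mm7 chr14:67877318-67877377) had log2 ratios of 0.16 in tumor 323, 0.01 in its lung tumor, -0.58 in tumor 307, -0.96 in its lung tumor and -0.05 in tumor 594. The adenocarcinomas had 0.17 in tumor 105, -0.67 in 131, -0.70 in 470, -0.61 in 17 and -0.41 in 85. The groups overlapped over almost their whole range, with a difference of 0.16 (SE 0.29, limma adjusted p 0.91), and 0.09 without tumor 470. The other Rb1 probe, A_52_P419873, was well above background in only 3 of 10 tumors and differed by 0.07 (SE 0.34), or -0.08 (SE 0.35) without tumor 470.

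Ccnd1 (probe A_51_P262766, placed by the files on mm7 chr7_random) had log2 ratios of -0.21 in tumor 323, 1.31 in its lung tumor, -0.34 in tumor 307, 0.12 in its lung tumor and 0.72 in tumor 594. The adenocarcinomas had -0.30 in tumor 105, -0.52 in 131, -0.10 in 470, 0.93 in 17 and -0.23 in 85. Lung tumor 323, adenocarcinoma 17 and tumor 594 were high and the rest were near or below the reference. The difference between the groups was 0.36 (SE 0.38, limma adjusted p 0.82) and 0.35 without tumor 470.

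Ccnd2 varied widely on all 3 probes without regard to group. Probe A_52_P514391 (mm7 chr6:127154070-127154129) had -1.21 in tumor 323, -2.87 in its lung tumor, -1.63 in tumor 307, -1.15 in its lung tumor and 0.38 in tumor 594. The adenocarcinomas had 0.05 in tumor 105, -2.71 in 131, -0.57 in 470, -2.15 in 17 and -0.55 in 85. Tumors 594 and 105 were highest and tumor 131 and lung tumor 323 lowest. The difference between the groups was -0.11 (SE 0.64), and the other probes, A_51_P433228 and A_52_P53906, gave -0.29 (SE 0.53) and -0.13 (SE 0.46), with limma adjusted p of 0.91 to 0.97 on all 3. Without tumor 470 they were 0.04, -0.24 and -0.09, each smaller than its standard error. The 3 probes span 19108 bases and correlated at r of 0.89 to 0.98 over the tumors.

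Other parts of the same circuit were read from fixed lists, and no gene in any of them passed the adjusted threshold, with or without tumor 470. None of the 7 cyclin and kinase partners, the 21 E2F factors and targets, the 14 Myc targets and the 6 other kinase inhibitors and pocket proteins reached an unadjusted p below 0.05. Their median differences were 0.00, 0.15, -0.02 and 0.11. Among them Cdk2, the kinase of S phase, differed by 0.57 (SE 0.31), Tyms, which makes thymidylate, by 0.63 (SE 0.31), the growth genes Npm1 and Odc1 by 0.48 (SE 0.36) and -0.54 (SE 0.46), and the inhibitor genes Cdkn1c and Cdkn1b by 0.92 (SE 0.76) and -0.52 (SE 0.32).

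Of 10 Myc partners and relatives, Mxd1, which encodes a repressor that competes with Myc for Max, was lower at an unadjusted p below 0.05, with a difference of -0.82 (SE 0.35, limma adjusted p 0.51), and the median of the list was -0.17. Mxi1 and Mlx differed by -0.69 (SE 0.35) and -0.40 (SE 0.27), and Max by 0.16 (SE 0.31). Of 10 other tumor suppressors, Nf2 was lower at that level, at -0.82 (SE 0.35, adjusted p 0.51), while Tsc2 differed by -0.68 (SE 0.38), and the median was -0.12. Of 10 factors that feed into D cyclins and Myc, 1 was higher and 3 were lower at that level, beside 6.32% of named genes higher and 4.8% lower. Their median was -0.57, the lowest of these lists, and 1 of the 10, Pgr, was well above background on no array. Without tumor 470, 1 was higher and 4 were lower, with a median of -0.66. Stat3 differed by -1.28 (SE 0.41, adjusted p 0.40), Erbb2 by -1.16 (SE 0.41, adjusted p 0.43), Stat5a by -0.98 (SE 0.39, adjusted p 0.48) and Esr1, which encodes an oestrogen receptor, by 1.38 (SE 0.63, adjusted p 0.54). Without tumor 470 Erbb2 was at -1.50 with an adjusted p of 0.0527.

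The 2 pairs allowed each lung tumor to be set beside the mammary tumor it came from, with 1 sample on each side and no test. The pairs are confounded with scan batch, because both lung arrays were in batch 3 and the mammary arrays were in batches 1 and 2. Each lung tumor also grew from an injected cell line, so site, culture, injection and batch cannot be told apart. Differences past 2-fold were found for 29.4% of all probes in tumor 323 and 23.4% in tumor 307, so single changes of that size were common. Trp53 probe A_52_P491849 was higher in the lung tumor by 2.01 in tumor 323 and by 1.57 in tumor 307, a pattern past 2-fold in both pairs that 3.96% of all probes showed. The other Trp53 probe moved by -0.16 and 0.34.

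In the fit with 3 groups, Trp53 probe A_52_P491849 was 1.57 (SE 0.54) higher in the lung than in the mammary sarcomatoid tumors, a 2.97-fold higher ratio, with a limma p of 0.0142 and an adjusted p of 0.36. Of all probes, 0.0249% passed the adjusted threshold in this comparison, and none of the members did. With scan batch as a term the limma value was 0.53 (SE 0.69, adjusted p 0.95). No batch held both lung and mammary sarcomatoid arrays, so that value does not set lung directly against mammary tumors. It is the group difference within batch 3 less that within batch 2. With tumor number as a block over the 2 pairs, the lung against mammary difference was 1.79 (SE 0.42, adjusted p 0.23). Without tumor 323 this difference was 1.23 (SE 0.56, p 0.0531) and without lung tumor 307 it was 1.32 (SE 0.70, p 0.0901). This was the 1 member probe at an unadjusted p below 0.05, beside 5.59% of all probes higher and 5.1% lower. Lung and mammary sarcomatoid tumors did not overlap on this probe and on both Mdm2 probes, where lung values of -1.20 and -1.06 stood against -1.59 to -1.30 and lung values of -0.39 and -0.30 against -0.82 to -0.43, beside 34.3% of all probes and 17.5% with the lung tumors higher.

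Cdkn1a was higher in the lung tumor in both pairs, by 1.10 in tumor 323 and 0.66 in tumor 307, and so was Ccnd1, by 1.52 and 0.46. Their fitted differences were 0.90 (SE 0.55) and 0.66 (SE 0.53), with limma adjusted p of 0.60 and 0.69. Cdkn2b was lower in the lung tumor in both pairs, with differences of -1.64 in tumor 323 and -0.20 in tumor 307, and Cdkn2a moved by 0.03 and -0.51. Ccnd2 went in opposite directions, with differences of -1.66, -0.52 and -0.84 on its 3 probes in tumor 323 and 0.49, 1.23 and 1.03 in tumor 307. Of all probes, 38.7% went in opposite directions in the 2 pairs, 12.3% with both differences past 0.4, and 4.36% were past 2-fold lower in both. Among the genes of the pathway lists the lung tumors differed by -4.75 from the mammary ones for Perp (SE 1.29, limma adjusted p 0.30). Trp63 differed by -3.74 (SE 1.48, adjusted p 0.42) and Cdkn1b by -1.03 (SE 0.37, adjusted p 0.38). Cdkn1c differed by 2.38 (SE 0.88, adjusted p 0.40), Nf2 by 1.13 (SE 0.40, adjusted p 0.38) and Ccna2, a cyclin of S phase, by 1.23 (SE 0.49, adjusted p 0.42). These were the genes of the pathway lists at an unadjusted p below 0.05, beside 5.59% of all probes higher and 5.1% lower in this comparison. Of the 10 epithelial markers, 6 were lower in the same comparison at an unadjusted p below 0.05, with a median of -3.59 over the 10 and Cldn7 at -5.06 (SE 1.49, limma adjusted p 0.31). At that level 3 of the 6 T cell markers were also lower, with a median of -1.32 over the 6. In the lung epithelium list 1 of 7 was higher, and no mesenchymal, myeloid or mitotic marker reached that level. The part of these cell types in these differences was not tested.

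**Figure D5:**
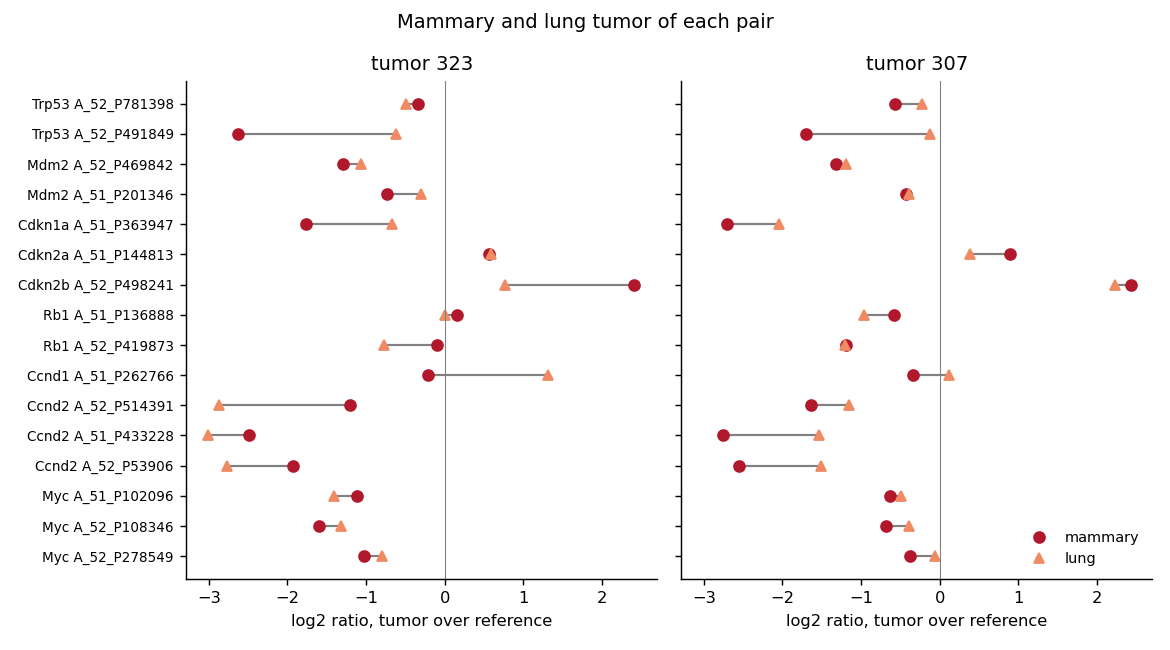
Log2 ratio (x axis) of the 16 member probes in the mammary tumor (circle) and the lung tumor (triangle) of pair 323 (left) and pair 307 (right), joined by a line. Trp53 probe A_52_P491849 and Cdkn1a lay to the right in the lung in both pairs, and the 3 Ccnd2 probes moved left in tumor 323 and right in tumor 307.

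The genes whose ratios ran most like each member over the 10 tumors were taken from 26078 named probes well above background in at least 5 tumors. They are the highest of 26078 correlations over only 10 tumors and describe these samples only. The nearest to Cdkn2a were Stard4 and Ube2k (r of 0.93 and 0.92), to Cdkn2b 9130401M01Rik and Gucd1 (0.91 each) and to Cdkn1a Lpar4 and Pdk3 (0.94 and 0.92). Trp53 probe A_52_P781398 ran with Rbm25 and Luc7l2 (0.95 and 0.91), whereas probe A_52_P491849 ran with 4933406C10Rik and Wdr35 (0.98 and 0.97), so the probes shared no nearest gene. Zfp423 was among the nearest for all 3 Ccnd2 probes (0.92, 0.92 and 0.95). The 3 Myc probes had Nup210 and Mlph, Traf4 and Baiap2l1, and Entpd6 and Tob2, at r of 0.94 to 0.97. Rb1 ran with Prss29 and Asrgl1 (0.89 each), Ccnd1 with Olfr418 and Jade2 (0.91 and 0.90), and the 2 Mdm2 probes with Adgb and Wars2 (0.91 and 0.90) and with Npepps and 1700001P01Rik (0.94 and 0.93).

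Around the other members, neighbouring genes with differences at an unadjusted p below 0.05 were counted, beside 6.32% of all named genes higher and 4.8% lower. There were none among the 8 neighbours each of Trp53, Cdkn1a and Rb1 and the 6 of Ccnd1, and 1 lower among the 8 of Ccnd2 (Prmt8, at -0.75 and well above background on no array). Among the 8 of Mdm2, Rap1b differed by 0.78 (SE 0.31, limma adjusted p 0.48) and Lyz1, a lysozyme gene, by 2.35 (SE 0.53, adjusted p 0.33). A relation of Lyz1 to the higher myeloid markers given above was not tested. Wrap53, the nearest gene upstream of Trp53, differed by 0.34 (SE 0.25).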

How the data were processed

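RNA of 10 mouse tumors was measured on Agilent arrays of 2 colours. The authors deposited scanner files with spot intensity in both channels and Feature Extraction's log10 ratio of red over green, and a normalized table whose log2 values they made with limma (version and steps not given in the sources used here). The log2 ratios of that table were the main values, spots of a probe were averaged, and 134 negative control rows of 42515 were left out. No column was left unused.

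The labels name Cy3 (green) for the tumor RNA. Green signals varied less between arrays than red ones (the SD of log2 signal over arrays averaged 0.73 in green and 0.97 in red), and each deposited column correlated best with red over green of its own array (r of 0.81 to 0.95, at most 0.76 with another array). Ratios were therefore read as tumor over reference, and every sign would turn if the label were right. Centring and other steps behind the table stay unknown, and column medians lay between -0.05 and 0.07.

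Groups were compared with limma 3.58.1 (R 4.3.3), two-sided, with Benjamini-Hochberg adjustment over all probes, a threshold of 0.05 and no filter. Lung, mammary sarcomatoid and adenocarcinoma tumors were fitted together for the site. Exact permutation tests of single probes used scipy 1.17.1, over 16 probes. Scanner intensities were corrected with normexp (offset 50) and loess as an alternative. Scan batch 1 held tumor 323, batch 2 tumors 307, 594, 105 and 470, and batch 3 the lung tumors, 131, 17 and 85. The fits were tested on simulated data. The number of arrays limits the precision, and no label says that samples of a group came from separate animals, so p-values measure the spread between these samples.

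Tumor number pairs the lung and mammary samples of 323 and 307 by origin. Their deviations from the group means correlated at 0.15 and 0.03.

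Probes were named by accession (22690), symbol (6433) or synonym (3033) in the RefSeq gene table (GRCm38.p6), and 8040 had no match. Coordinates of probes are those of mm7 in the scanner files, and promoter sequences are from RefSeq (GRCm38.p6). The named genes were the members, up to 3 genes a direction with the smallest unadjusted p in each list, the 2 genes most correlated with each member probe and the 4 nearest genes with a probe on each side of a member. The gene with several probes was represented by the one with the highest mean signal. The members and lists were chosen with earlier results of these data known. Lung against mammary values of listed genes were chosen after they were seen. A gene that the rule would name among the other tumor suppressors is not reported here.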

Additional observations from a re-analysis of the deposited data

Results flagged for a closer look

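Of 32 groups of 5 tumors (16 probes in each group), 2 held a tumor far from the others, where chance flags about 1.6. On Trp53 probe A_52_P491849, adenocarcinoma 85 stood at -0.30 while the other 4 lay between -1.99 and -1.51. On Myc probe A_51_P102096, adenocarcinoma 470 stood at -1.28 while the other 4 lay between -0.15 and 0.15. On Ccnd2 probe A_52_P514391 the lung tumor differed from the mammary tumor by -1.66 in tumor 323 and by 0.49 in tumor 307, and all 3 Ccnd2 probes had these opposite directions. That difference between the pairs was not tested.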

How the results depend on the processing

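No member probe passed the adjusted threshold in any of the 3 comparisons under any alternative. Signs of differences smaller than their standard errors were not read. The count of probes past the threshold between sarcomatoid tumors and adenocarcinomas (0, with 3709 at an unadjusted p below 0.05) was 1 with scanner files and median centring, 2 with 1 value per tumor number, and from 0 to 618 when 1 sample was left out, the highest without tumor 470. For lung against mammary sarcomatoid tumors it was 10. It was 2 with scanner files and loess, 3 with median centring and 4 with the filter on dim probes. It was 0 with scan batch as a term, a fit that does not set lung directly against mammary sarcomatoid tumors. With tumor number as a replicate block over the 2 pairs it was also 0 (5336 at an unadjusted p below 0.05 in limma), and leaving out 1 sample gave 0 to 84, the highest without tumor 470. For mammary sarcomatoid tumors against adenocarcinomas it was 0 (3455 at an unadjusted p below 0.05) and from 0 to 210 when 1 sample was left out. The replicate block changed no call of a member.

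Of the member probes' differences, Trp53 probe A_52_P781398 turned from 0.03 to -0.15 between the groups with scanner files and median centring. With scan batch as a term, lung against mammary turned to 0.16 for Ccnd2 probe A_52_P514391 and to -1.06 for Myc probe A_52_P108346, and mammary sarcomatoid against adenocarcinoma turned to 0.32 for Trp53 probe A_52_P491849 and to 0.0722 and 0.0340 for Myc probes A_51_P102096 and A_52_P108346. The mammary values repeat the differences within scan batch 2, the only batch with mammary sarcomatoid and adenocarcinoma arrays together. Without tumor 470 those were 0.25 for the Trp53 probe and -0.53 and -0.58 for the Myc probes. No batch put lung beside mammary sarcomatoid arrays. The lung values are thus each the group difference within batch 3 less that within batch 2, not a comparison of lung with mammary tumors. The cause of the turn in Trp53 probe A_52_P781398 was not tested. The values within scan batch 2 without tumor 470 were chosen after seeing the data. Counting every probe gave 6 higher of 41 among p53 targets and 5 lower of 23 among D cyclin and Myc inputs. It gave 1 lower each among 30 probes of p53 regulators and 10 of the other kinase inhibitors. In the marker lists 11 of 17 epithelial probes were lower, and 11 of 22 mesenchymal and 13 of 14 myeloid probes were higher. These counts, at an unadjusted p below 0.05, stand beside 4.98% of all probes higher and 4.25% lower. With scanner files and loess the mean of the dim Rb1 probe A_52_P419873 was -0.19 and -0.21 in the groups, and every other member mean moved by less than the SD of its group. Only 5 samples a group, and 3 sarcomatoid origins, limit what could be called.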
